A study of Triticum urartu with 18 samples.

Results

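The starch branching enzyme genes of Triticum urartu are 4 rows of the deposited expression table, TuSBEI, TuSBEIIa, TuSBEIIb and TuSBEIII. They were taken as every row that the authors annotate as a starch synthesis related gene and whose identifier starts with TuSBE, which gives 4 of 28 such genes and 4 of 27121 genes in all. RNA-Seq covered 5 endosperm stages, sampled 5, 10, 15, 20 and 25 days after flowering (days post anthesis, DPA), and the flag leaf at 10 DPA. Each of these 6 groups has 3 biological replicates. All 18 samples came from untreated, field-grown wild-type plants of accession PI 428198 of this species, a wild diploid wheat related to the A genome of bread wheat. Per the labels, the embryo, aleurone, seed coat and pericarp had been removed from the endosperm. Libraries are numbered by their column within a group, because the headings do not tie a column to a sample.

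Starch branching enzymes cut a linear α-glucan chain and rejoin the cut piece as a side branch, and so give amylopectin its branched form. Class I enzymes (SBEI) prefer long, amylose-like chains, while class II enzymes (SBEIIa and SBEIIb) prefer amylopectin and move shorter chains. In maize and rice the IIb form belongs to the grain and the IIa form is also found in leaf. In bread wheat endosperm, loss of SBEIIa raises the amylose content of the starch. The SBEIII class is less well described, and no role is given for it here.

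Levels are FPKM, fragments scaled for transcript length and library total, so genes can be compared per length. Read depth is unknown, so a value of 0 is called listed at 0. Changes are on the log2(FPKM + 1) scale, which understates those of low genes. The libraries listed 9328 to 21594 genes above 0, with the lowest numbers at 20 DPA. The 12 genes with the highest single FPKM values together held 24.0% to 32.2% of the total at 5 DPA and 83.2% to 86.1% at 20 DPA, which left a smaller share for all other genes at 20 DPA. Changes are therefore also given after median-ratio scaling, which sets the median ratio of genes detected in every library to a common value. The 21 storage prolamin genes, which mark filling endosperm, held 0.0031% to 0.0129% of the total at 5 DPA and 17.1% to 22.1% at 10 and 15 DPA. They held 0.892% to 1.28% at 20 DPA and 0.382%, 12.1% and 1.99% in the 25 DPA libraries, which were unlike one another. In bulk tissue, fewer cells of a type and less RNA per cell cannot be told apart.

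TuSBEI, the class I gene, had the highest level of the 4 genes at every endosperm stage from 10 DPA on. At 5 DPA its FPKM was 64.7, 55.9 and 53.6 in libraries 1 to 3. At 10 DPA it was 488, 498 and 680, and at 15 DPA 748, 846 and 778. Every 15 DPA library thus lay above every 10 DPA library, and every 10 DPA library above every 5 DPA library. At 20 DPA the FPKM of TuSBEI was 19.0, 23.1 and 17.4, and at 25 DPA it was 26.6, 270.0 and 36.8. In flag leaf it was 1.67, 5.19 and 3.71. The 25 DPA libraries lay above those of 20 DPA and overlapped those of 5 DPA, with library 2 far above the other two, and the leaf libraries were the lowest of all groups. TuSBEI ranked 92nd to 96th of all genes in the 15 DPA libraries and 244th to 305th in the 20 DPA libraries, where its FPKM was far lower. In the 25 DPA libraries its rank was 268, 307 and 2115.

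TuSBEIIa, a class II gene, was highest at 5 DPA as deposited and lower at each stage up to 20 DPA. Its FPKM was 232, 200 and 236 at 5 DPA, 133, 131 and 147 at 10 DPA, and 34.8, 37.5 and 31.4 at 15 DPA. The 20 DPA libraries had 1.32, 0.73 and 1.14, and the 25 DPA libraries 3.90, 24.9 and 14.1. Between 5 and 20 DPA no stage overlapped the next, and the 25 DPA libraries all lay above those of 20 DPA. In flag leaf TuSBEIIa had 10.1, 41.8 and 49.9 FPKM, which overlapped the range at 15 and at 25 DPA. Leaf library 1, the low value, listed 14533 genes above 0 against 17429 and 17866 in the other leaf libraries. After median-ratio scaling the order of the early stages changed, and the mean scaled level of TuSBEIIa was 81.4 at 10 DPA against 53.7 at 5 DPA, with no overlap of libraries. The share of all genes without overlap was not computed on that scale. In the test given below the scaled change was not called (log2 change 0.55, limma adjusted p = 0.432).

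TuSBEIIb, the other class II gene, was high at a single sampled stage. Its FPKM was 2.27, 4.07 and 3.56 at 5 DPA and 128, 116 and 150 at 10 DPA. At 15 DPA it had dropped to 17.9, 19.1 and 13.9 FPKM, with no overlap with either earlier stage. At 20 DPA TuSBEIIb was listed at 0, 0.18 and 0, and at 25 DPA at 2.98, 4.24 and 0, so that the 25 DPA libraries overlapped those of both 5 and 20 DPA. In flag leaf it was listed at 0 in all 3 libraries. The same order, 10 DPA above 15 DPA and both above 5 DPA, held after median-ratio scaling, with mean scaled levels of 78.1, 17.1 and 0.80.

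TuSBEIII stayed at or below 3.85 FPKM in all 18 libraries. It was highest at 5 DPA, with 3.85, 1.97 and 2.99 FPKM, and had 1.13, 2.01 and 1.31 in flag leaf, with overlap between the groups. The 10 DPA libraries had 0.37, 0.12 and 0.37 FPKM and the 15 DPA libraries 0.30, 0.45 and 0.18. The last 2 stages had 0, 0.17 and 0 and then 0, 0.48 and 1.00. These 4 later stages overlapped one another in the order of their means, and TuSBEIII met the expression filter of the tests (1 FPKM in 3 libraries of a fit) only through the groups where it was high, 5 DPA or leaf, apart from a value of 1.00 in 25 DPA library 3. Its differences from those groups are therefore given as values, with no test, and are not counted as calls. A list of 84 leaf-abundant genes was drawn from these libraries, by a leaf mean of at least 1000 FPKM and at least 10 times the 15 DPA mean. Their high level in leaf and lower level at 15 DPA are thus set by that choice. In the 5 DPA libraries the list had a median of 510, 468 and 452 FPKM, against 95.7 to 125 at 10 DPA and 1794 to 2810 in leaf. Of these 84 genes 0 or 1 were listed at 0 in a 5 DPA library. For TuSBEIIa the 5 DPA level was above that of every leaf library. The part of leaf-abundant transcripts in the 5 DPA levels of TuSBEIII and TuSBEIIa was not tested.

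**Figure D1:**
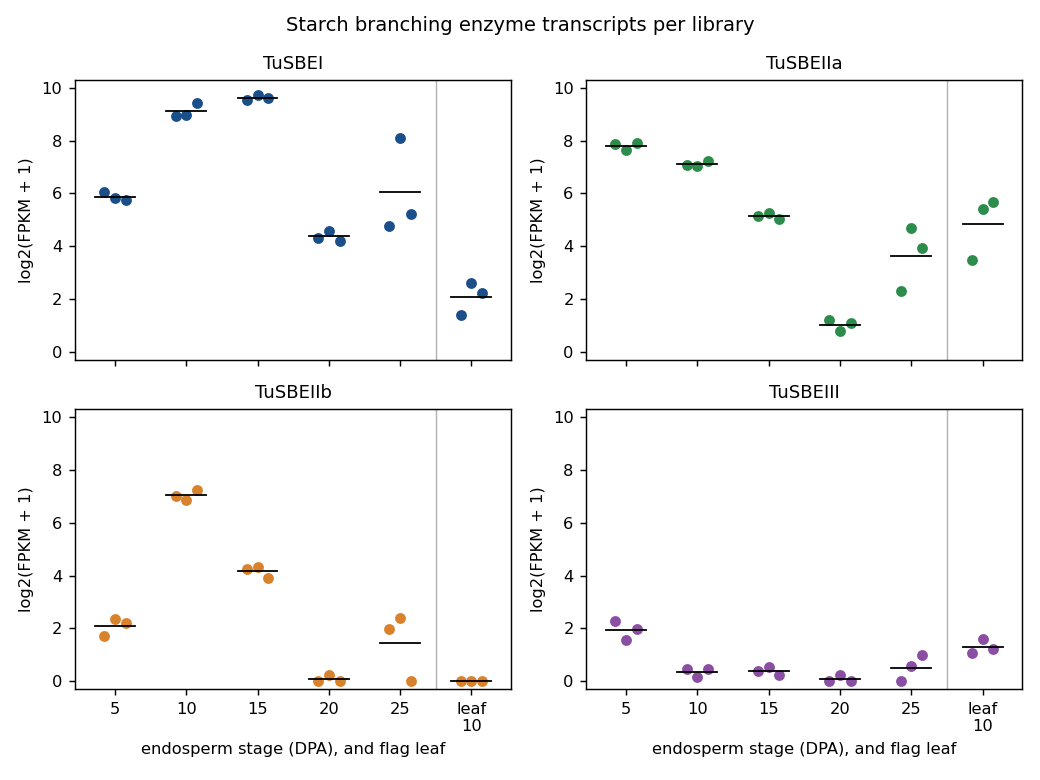
Level of each branching enzyme gene, as log2(FPKM + 1), in every library (points) with the group mean (line), for 5 endosperm stages and flag leaf at 10 DPA. TuSBEI is highest at 15 DPA (748 to 846 FPKM), TuSBEIIb at 10 DPA (116 to 150 FPKM) and TuSBEIIa at 5 DPA (200 to 236 FPKM), while TuSBEIII never exceeds 3.85 FPKM.

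The make-up of the branching enzyme transcripts moved from class II to class I. TuSBEIIa held 77.5% ± 1.89 of the summed FPKM of the 4 genes at 5 DPA, and TuSBEI held 20.3% ± 1.91 (SD, n = 3). At 10 DPA TuSBEI held 67.2% ± 2.27, TuSBEIIa 16.8% ± 1.53 and TuSBEIIb 16.0% ± 0.954. At 15 DPA TuSBEI held 93.8% ± 0.568 and at 20 DPA 94.3% ± 1.08. These shares do not depend on how a library was scaled. In the 25 DPA libraries TuSBEI held 79.4%, 90.1% and 70.9%, and TuSBEIIa 11.7%, 8.30% and 27.2%. Flag leaf resembled 5 DPA endosperm in its leading gene, since TuSBEIIa held 84.8% ± 6.29 there and TuSBEI 10.1% ± 3.12.

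**Figure D2:**
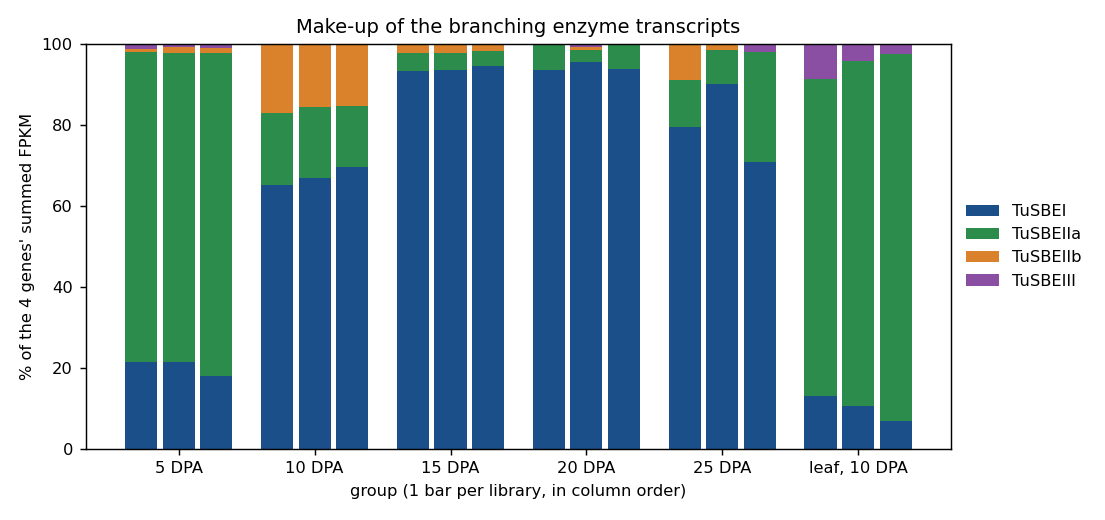
Share of the summed FPKM of the 4 branching enzyme genes held by each gene, with 1 bar per library in column order within each group. TuSBEIIa leads at 5 DPA (76.3% to 79.7%) and in leaf (78.3% to 90.9%), and TuSBEI leads from 10 DPA on, with 93.4% to 95.5% at 15 and 20 DPA.

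The shift was tested as the log2 ratio of (FPKM + 1) between 2 genes within each library, over the 5 stages, with an F statistic whose exact permutation p came from all 1401400 partitions of the 15 libraries into groups of 3 (one-sided). The 3 pairs among TuSBEI, TuSBEIIa and TuSBEIIb differed across the stages after Benjamini-Hochberg adjustment over all 6 pairs. The log2 ratio of TuSBEI to TuSBEIIa from 5 to 20 DPA was -1.92 ± 0.17, 2.00 ± 0.18, 4.48 ± 0.10 and 3.34 ± 0.40 by stage (SD, n = 3). It was 2.49, 3.39 and 1.32 in the 25 DPA libraries, and the exact permutation p over the stages was 4.8e-05 (adjusted p = 9.6e-05). TuSBEI thus went from the lower to the higher of the pair between 5 and 10 DPA in every library.

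The ratio of TuSBEI to TuSBEIIb followed another course. Its log2 value at 5, 10 and 15 DPA was 3.80 ± 0.46, 2.06 ± 0.13 and 5.47 ± 0.21 (SD, n = 3), so that the lowest of these 3 stages was 10 DPA, where TuSBEIIb was highest. Among the 25 DPA libraries it was 2.79, 5.69 and 5.24, and the exact permutation p was 0.0045 (adjusted p = 0.0045). The ratio of TuSBEIIa to TuSBEIIb was 5.72 ± 0.42 at 5 DPA and 0.07 ± 0.10 at 10 DPA on the log2 scale (SD, n = 3). At 10 DPA both class II genes therefore stood at nearly the same level per length, and in library 3 TuSBEIIb was the higher. At 15 DPA that ratio was 0.99 ± 0.11, and the exact permutation p over the stages was 0.0011 (adjusted p = 0.0013). The 3 pairs with TuSBEIII are not read as a shift, because they take in 5 DPA, where TuSBEIII was high. From 10 DPA on TuSBEIII had at most 1.00 FPKM, so with the added 1 FPKM these ratios mostly follow the other gene. With 5, 10 and 15 DPA alone, each pair among TuSBEI, TuSBEIIa and TuSBEIIb gave an exact p of 0.0036, the smallest that 280 partitions allow. Where both genes are near 0, as for TuSBEIIb and TuSBEIII at 20 DPA, the added 1 FPKM holds the ratio near 0.

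**Figure D3:**
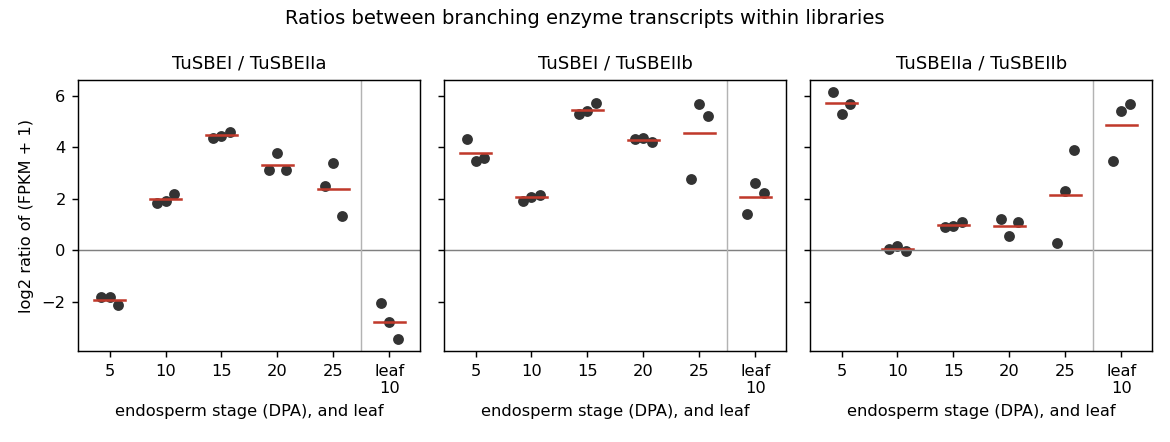
Log2 ratio of (FPKM + 1) between pairs of branching enzyme genes within each library (points) and the group mean (line), for 5 endosperm stages and flag leaf. TuSBEI over TuSBEIIa rises from a mean of -1.92 at 5 DPA to 4.48 at 15 DPA, and TuSBEIIa over TuSBEIIb drops from 5.72 at 5 DPA to 0.07 at 10 DPA.

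Filling starts between 5 and 10 DPA. In this interval TuSBEI and TuSBEIIb rose. TuSBEI went from 58.0 ± 5.84 to 555 ± 108 FPKM (SD, n = 3; log2 change 3.22, SE 0.72, adjusted p = 0.00211 by limma). TuSBEIIb went from 3.30 ± 0.928 to 131 ± 17.4 FPKM (log2 change 4.96, SE 0.52, adjusted p = 2.70e-06 by limma). TuSBEIII went from 2.94 ± 0.941 to 0.287 ± 0.144 FPKM, a difference of -1.59 on the log2(FPKM + 1) scale that was not counted as a call and ran from -0.58 to -3.01 between pseudocounts of 5 and 0.1. TuSBEIIa stood at 137 ± 8.76 against 222 ± 19.9 FPKM and was not called (log2 change -0.69, SE 0.56, limma adjusted p = 0.296). That p rests on a spread shared with the unlike 25 DPA libraries. Fitted without them, the same change had an SE of 0.16 and a limma adjusted p of 0.00229. With the compared groups fitted alone, the limma adjusted p was 0.000639. In both fits TuSBEIIa stayed uncalled because the change was under 1 in size.

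A gene was called at a limma adjusted p under 0.05 over all genes tested and a log2 change of at least 1 in size. Against 2 of 4 members called higher, 3.16% of all genes tested were called higher, and TuSBEIIa was not among the 45.6% called lower. No library of 1 stage overlapped the other for any of the 4 genes: TuSBEI and TuSBEIIb lay higher at 10 DPA, as did 5.36% of all genes, and TuSBEIIa and TuSBEIII lower, as did 73.4%. The median log2 change of all genes tested was -1.23. After median-ratio scaling the median of all genes was -0.17, TuSBEI and TuSBEIIb were still called, at log2 changes of 4.40 and 5.37, and 4.86% of all genes were called higher. Under that scaling the difference of TuSBEIII was -0.52, and TuSBEIIa changed sign, to 0.55 (limma adjusted p = 0.432, not called). The leaf-abundant genes given above for 5 DPA also stood lower at 10 DPA (a median of 95.7 to 125 FPKM against 452 to 510), and their part in the falls was not tested.

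At 15 against 10 DPA, in the middle of filling, both class II genes fell. TuSBEIIa went from 137 ± 8.76 to 34.6 ± 3.06 FPKM (SD, n = 3; log2 change -1.96, SE 0.56, adjusted p = 0.0242 by limma). TuSBEIIb went from 131 ± 17.4 to 17.0 ± 2.72 FPKM (log2 change -2.89, SE 0.52, adjusted p = 0.00113 by limma). TuSBEI, with 791 ± 50.5 against 555 ± 108 FPKM, was not called (log2 change 0.52, SE 0.72, limma adjusted p = 0.635), although its 15 DPA libraries all lay above those of 10 DPA, as for 5.53% of all genes. TuSBEIII stood at 0.310 ± 0.135 against 0.287 ± 0.144 FPKM (limma adjusted p = 0.971). Both class II genes lay lower without overlap, as did 48.9% of all genes. Of all genes tested, 16.7% were called lower, against 2 of 4 members, and the median log2 change was -0.65 against -0.97 for the 4 genes.

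The mid-filling calls depended on the pseudocount, the scaling and the 25 DPA libraries that share the estimate of the spread. With a pseudocount of 0.1 neither class II gene was called, at log2 changes of -1.99 and -2.95 (limma adjusted p = 0.057 and 0.101). After median-ratio scaling 0 of the 4 genes were called, against 9.93% of all genes, and before adjustment the p of both class II genes was under 0.05 (log2 changes of -1.20 and -2.13, limma adjusted p = 0.0556 and 0.0794). As deposited, but fitted without the 25 DPA libraries, both class II genes kept their calls (limma adjusted p = 2.56e-06 and 8.73e-07). In that fit 6607 of all genes were called in either direction, against 3484 with the 25 DPA libraries. TuSBEI then had a log2 change of 0.52 with an SE of 0.18 and a limma adjusted p of 0.0294. It stayed uncalled because that change was under 1 in size. With median-ratio scaling and a fit without the 25 DPA libraries, an alternative added after the data were seen, TuSBEI was called higher (log2 change 1.30, SE 0.17, limma adjusted p = 0.000391). In that fit TuSBEIIa and TuSBEIIb were called lower (log2 changes of -1.19 and -2.12, limma adjusted p = 0.0107 and 0.000451). The call of TuSBEIIa as deposited was lost without any 1 of the 6 compared libraries (limma adjusted p of 0.0578 to 0.0817).

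At 20 against 15 DPA, late in filling, TuSBEI, TuSBEIIa and TuSBEIIb all fell. TuSBEI went from 791 ± 50.5 to 19.8 ± 2.90 FPKM (SD, n = 3; log2 change -5.25, SE 0.72, adjusted p = 0.000269 by limma). TuSBEIIa went from 34.6 ± 3.06 to 1.06 ± 0.302 FPKM (log2 change -4.11, SE 0.56, adjusted p = 0.000261 by limma). TuSBEIIb went from 17.0 ± 2.72 FPKM to 0, 0.18 and 0, a log2 change of -4.08 that the added 1 FPKM understates (SE 0.52, limma adjusted p = 0.000153). TuSBEIII was already low and was not called (log2 change -0.31, limma adjusted p = 0.374). Here 43% of all genes tested were called lower, against 3 of 4 members, 57.1% of all genes lay lower without overlap, and the median log2 change was -1.09 over all genes and -4.10 over the 4.

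After median-ratio scaling the same 3 genes were called lower at 20 DPA, where 11.3% of all genes were. Their log2 changes were then -2.45 for TuSBEI, -2.03 for TuSBEIIa and -3.71 for TuSBEIIb (limma adjusted p = 0.0152, 0.00262 and 0.00364). The size of the fall thus rests on the scaling. Its order among the genes is not given, because TuSBEIIb was listed at 0 in 2 of 3 libraries and its log2 change ran from -2.11 to -6.91 between pseudocounts of 5 and 0.1.

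At 25 against 20 DPA, TuSBEIIa and TuSBEIIb were called higher (2 of 4 members), while 35.3% of all genes tested were as well. TuSBEI and TuSBEIIa lay above 20 DPA in every 25 DPA library, as did 18.8% of all genes. TuSBEIIa had 3.90, 24.9 and 14.1 against 1.06 ± 0.302 FPKM (SD, n = 3; log2 change 2.60, SE 0.56, adjusted p = 0.0111 by limma), which was lost without 25 DPA library 2 (limma adjusted p = 0.0564). TuSBEIIb had 2.98, 4.24 and 0 against 0, 0.18 and 0, with a limma adjusted p of 0.0492. Its call was lost without any 1 of 14 of the 15 endosperm libraries, and held without 25 DPA library 3, in which TuSBEIIb was listed at 0. TuSBEI was not called (log2 change 1.66, limma adjusted p = 0.0806), but was called without 25 DPA library 1 (log2 change 2.29, limma adjusted p = 0.00237). Library 1 stood apart from libraries 2 and 3 and near those of 20 DPA, with 10644 genes above 0 against 17135 and 17237 and 85.4% of its total in the 12 genes with the highest values against 44.5% and 45.7%. The part of this difference in the results was not tested. TuSBEIII was not called (limma adjusted p = 0.196). After median-ratio scaling limma called 0 of 4 genes against 9.19% of all genes tested, with 1 of the 4, TuSBEIIb, under 0.05 before adjustment. The log2 change of TuSBEI was then -0.80. As deposited, library 2 was the highest 25 DPA library for all of TuSBEI, TuSBEIIa and TuSBEIIb. It also had the highest prolamin share at 25 DPA, 12.1% against 0.382% and 1.99%. After median-ratio scaling it was highest only for TuSBEI (181 against 165 and 18.2 in libraries 1 and 3). Library 1 was then highest for TuSBEIIa, at 24.3 against 16.7 and 6.99 in libraries 2 and 3. It was also highest for TuSBEIIb, at 18.6 against 2.85 and 0. The part of the prolamin difference in the results was not tested.

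Over the whole period, 25 against 5 DPA, TuSBEIIa fell, in a comparison where 72% of all genes tested were called lower and 70.2% lay lower without overlap. TuSBEIIa went from 222 ± 19.9 FPKM (SD, n = 3) to 3.90, 24.9 and 14.1 (log2 change -4.16, SE 0.56, adjusted p = 1.14e-05 by limma). After median-ratio scaling it was still called lower, as were 22.6% of all genes (log2 change -1.87, limma adjusted p = 0.00145). TuSBEI was not called as deposited (log2 change 0.16, limma adjusted p = 0.846), and was called higher after median-ratio scaling (log2 change 2.44, limma adjusted p = 0.00681), where 7.93% of all genes were. The scaled levels of TuSBEI were 13.6 to 14.6 at 5 DPA and 165, 181 and 18.2 in the 25 DPA libraries, so library 3 stood near the 5 DPA level. TuSBEIII stood at 0, 0.48 and 1.00 FPKM against 2.94 ± 0.941 (SD, n = 3), a log2 difference of -1.43 as deposited and -0.42 after median-ratio scaling, not counted as a call. TuSBEIIb was not called on either scale (limma adjusted p = 0.279 and 0.221).

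Across the 5 stages together, limma's F-test gave an adjusted p under 0.05 for TuSBEI, TuSBEIIa and TuSBEIIb, as it did for 92.1% of all genes tested. The adjusted p-values were 2.72e-05 for TuSBEI, 2.96e-07 for TuSBEIIa and 1.32e-07 for TuSBEIIb.

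The 10 DPA endosperm and the flag leaf of the same date were compared next. TuSBEI and TuSBEIIa were called higher in endosperm, against 21.7% of all genes tested. TuSBEIIb and TuSBEIII passed the filter of this fit only through the tissue where each was high, and are given as values. No library of one tissue overlapped the other for TuSBEI, TuSBEIIa and TuSBEIIb (28.5% of all genes were likewise apart and higher in endosperm). TuSBEI stood at 555 ± 108 against 3.52 ± 1.77 FPKM (SD, n = 3; log2 difference 7.01, SE 0.38, adjusted p = 8.19e-06 by limma). TuSBEIIa stood at 137 ± 8.76 against 33.9 ± 21.0 FPKM (log2 difference 2.25, SE 0.56, adjusted p = 0.0112 by limma). TuSBEIIb had 131 ± 17.4 FPKM in endosperm and was listed at 0 in every leaf library, so no fold is given. TuSBEIII pointed the other way, with 0.287 ± 0.144 against 1.48 ± 0.465 FPKM and no overlap of libraries, as for 30.6% of all genes in that direction. After median-ratio scaling both calls held, against 28.6% of all genes called higher, with log2 differences of 7.28 for TuSBEI and 2.55 for TuSBEIIa. The log2 ratio of TuSBEI to TuSBEIIa was 2.00 ± 0.18 in endosperm and -2.76 ± 0.69 in leaf (SD, n = 3), with no overlap. With 3 libraries a tissue, the smallest exact two-sided p is 0.1, and none was computed.

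**Figure D4:**
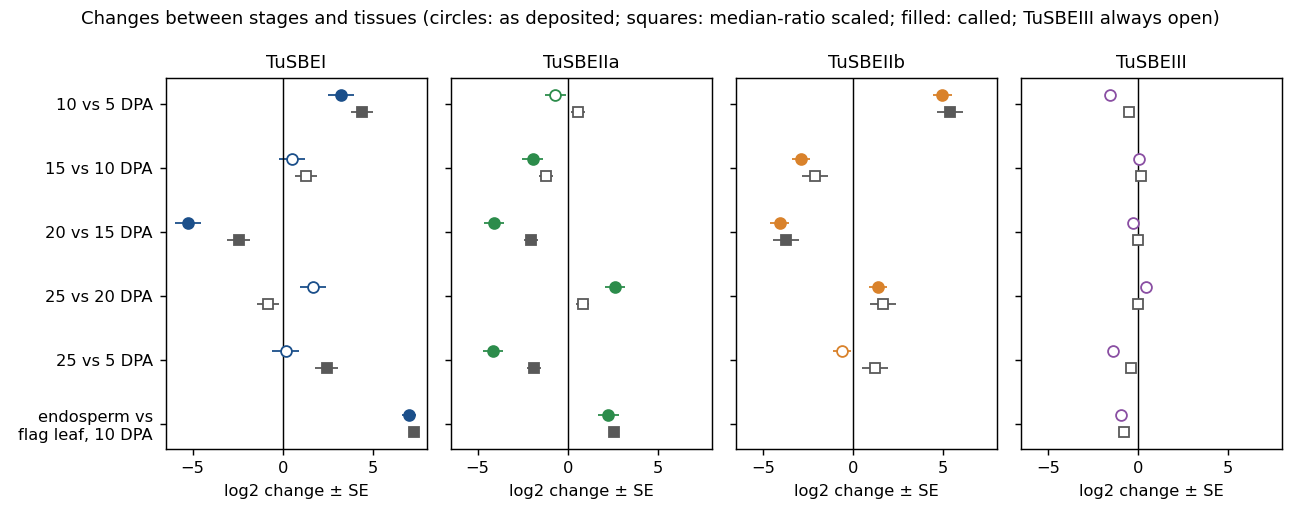
Log2 change with its standard error for each branching enzyme gene in 6 comparisons, from limma on log2(FPKM + 1) as deposited (circles) and after median-ratio scaling (squares), with filled symbols for called genes and TuSBEIII drawn open throughout, since it passed the filter only through groups where it was high. TuSBEIIb against flag leaf is left out because leaf is listed at 0; the fall at 20 against 15 DPA is called on both scales for TuSBEI, TuSBEIIa and TuSBEIIb.

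Among the 28 starch synthesis related genes TuSBEI took a growing part up to 15 DPA. Of the FPKM of the 28 genes, the 4 branching enzyme genes held 7.42% to 8.33% at 5 DPA and 14.2% to 16.2% at 10 DPA. They held 42.2% to 48.1% at 15 DPA and 40.9% to 47.1% at 20 DPA. The 28 genes together held 0.268% ± 0.0114 of the total FPKM at 5 DPA and 0.307% ± 0.0296 at 10 DPA (SD, n = 3). At 15 DPA they held 0.0953% ± 0.0111 and at 20 DPA 0.00136% ± 0.000263. From 10 to 15 DPA the whole set thus fell, while the change of TuSBEI itself was not called as deposited. From 5 to 20 DPA the share of TuSBEI alone was 1.61% ± 0.166, 9.99% ± 1.10, 42.0% ± 3.12 and 41.0% ± 2.64 by stage (SD, n = 3). Among the 25 DPA libraries it was 17.9%, 27.3% and 10.8%, and in leaf 0.226% to 0.364%. TuSBEI was the only gene of the 28 whose highest stage mean was at 15 DPA as deposited. Of the other 24 starch genes, 16 were highest at 5 DPA and 8 at 10 DPA. After median-ratio scaling 6 were highest at 5 DPA, 13 at 10 DPA, 1 at 15 DPA (TuGPT, a glucose-phosphate transporter gene), 1 at 20 DPA and 3 at 25 DPA.

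The other 24 starch genes were followed through the same comparisons. From 5 to 10 DPA 5 rose, 9 fell and 10 were not called, with a median log2 change of -0.79 against -1.23 over all genes tested. After median-ratio scaling the balance turned, with 7 higher, 4 lower and a median of 0.42, against -0.17 over all genes. Under that scaling 4.86% of all genes were called higher, and 1386 of 19418 lower. The rises were led by TuGBSSI, the granule-bound synthase that makes amylose (log2 change 4.16), the debranching enzyme gene TuPUL (2.93) and the sucrose synthase gene TuSuSy2 (2.54). The falls were led by the synthase genes TuGBSSII (-3.84), TuSSIV (-2.74) and TuSSIIb (-2.69). Among the 8 starch synthase genes 2 rose and 5 fell in this step as deposited.

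From 10 to 15 DPA 9 of the 24 fell and 0 rose, where 16.7% of all genes were called lower. Leading these falls were TuSuSy2 (log2 change -4.73), TuSSIIa, a synthase that builds amylopectin (-4.56), and the phosphorylase gene TuPHO1 (-2.54). After median-ratio scaling 4 of the 24 were called lower, as were 1314 of all 19418 genes tested. From 15 to 20 DPA 20 of 24 fell, led by TuGBSSI (-8.29), TuSuSy2 (-5.38) and TuUGPase, which makes UDP-glucose (-5.00), with a median log2 change of -3.15 against -1.09 over all genes. Of all genes, 43% were called lower in this step. With median-ratio scaling 13 of the 24 fell, where 11.3% of all genes were called lower. From 20 to 25 DPA 16 of 24 were called higher and 0 lower, led by the ADP-glucose pyrophosphorylase gene TuAGPL-cyto (4.10), TuGBSSI (4.06) and TuUGPase (3.05), where 35.3% of all genes were called higher. This count was 1 after median-ratio scaling, 1 without 25 DPA library 2 and 0 with the compared groups fitted alone. Calls over all genes, in either direction, also fell, from 6876 to 1784 with that scaling and to 29 with the compared groups alone. They fell without 25 DPA library 2 as well, so the loss was not particular to the starch genes. From 5 to 25 DPA 21 of 24 fell (12 after median-ratio scaling, with 1 higher), where 72% of all genes were called lower, led by TuSSIIa (-7.19), the sucrose-phosphate synthase gene TuSPS1 (-5.99) and TuSuSy2 (-5.91). Under that scaling 22.6% of all genes were called lower and 7.93% higher. In endosperm against leaf 13 were higher and 5 lower. Of the 16709 genes tested there, 3628 (21.7%) were called higher and 4525 lower. TuSuSy2 (9.58) and TuSSIIa (7.34) were among the largest differences, along with TuGBSSI, which was listed at 0 in leaf. TuGBSSI and TuSSIIa (at most 0.44 FPKM in leaf) passed the filter of this fit only through endosperm. The 13 genes called higher take in both, so that count is a description. TuSSIIb (-3.10), TuSPS1 (-2.72) and TuSSIV (-2.45) were higher in leaf.

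**Figure D5:**
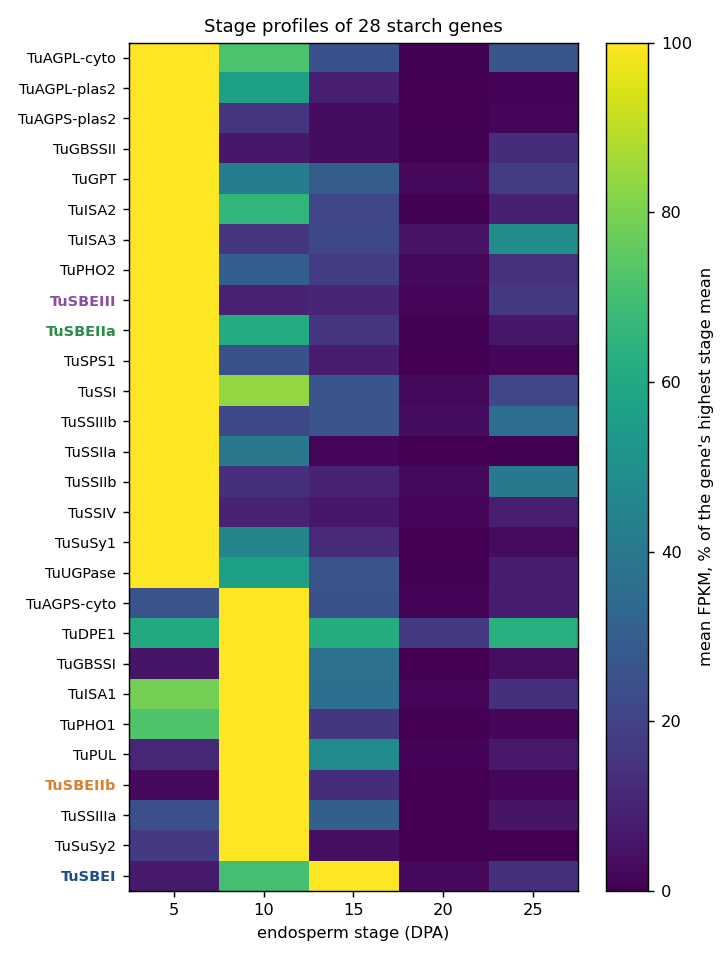
Mean FPKM of each of the 28 starch synthesis related genes at the 5 endosperm stages, as a percentage of that gene's highest stage mean, with genes ordered by the stage of the highest mean and the branching enzymes in bold. As deposited, TuSBEI is the only gene that peaks at 15 DPA, and TuSBEIIb is among the genes that peak at 10 DPA.

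The annotated genes with the profile most like each branching enzyme gene were named by Pearson's r of log2(FPKM + 1) over the 18 libraries, among 528 annotated genes that reached a group mean of 10 FPKM. These libraries share their groups and their scaling, so r is given as a description. For TuSBEI they were the NF-YC gene TRIUR3_29815 (r = 0.96), the MYB gene TRIUR3_26358 (0.94) and the ERF gene TRIUR3_34295 (0.93). All of these had their highest mean at 10 DPA, not at 15 DPA. For TuSBEIIb they were TRIUR3_33098, named TuWPBF, a Dof transcription factor gene, TuPUL and the NF-YB gene TRIUR3_32790 (r = 0.96 each). For TuSBEIIa they were the ERF genes TRIUR3_18522 and TRIUR3_08978 (r = 0.98 each) and the bZIP gene TRIUR3_15554 (0.97). For TuSBEIII they were the starch synthase gene TuSSIV (r = 0.93), the MYB gene TRIUR3_28076 and the G2-like gene TRIUR3_02469 (0.92 each). Among the members themselves r was 0.86 between TuSBEI and TuSBEIIb, 0.42 between TuSBEI and TuSBEIIa, and 0.57 between TuSBEIIa and TuSBEIIb. For the low gene TuSBEIII, r was 0.61 with TuSBEIIa, -0.31 with TuSBEI and -0.26 with TuSBEIIb. No other row held values identical to those of a branching enzyme gene.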

How the data were processed

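The authors' deposited table holds FPKM for 27121 genes in 18 libraries. The submitters' processing notes name Bowtie 0.12.2. The genome build, annotation and counting program, and the handling of reads shared by related genes, are not stated in any source used here. The log2(FPKM + 1) values were fitted in limma 3.58.1 (R 4.3.3) with a mean-variance trend and Benjamini-Hochberg adjustment over all genes that reached 1 FPKM in 3 or more of the fitted libraries. This left 19418 genes for the 15 endosperm libraries and 16709 for the 6 libraries at 10 DPA. Ratios and exact permutation tests used Python 3.11.15 and NumPy 2.4.6, and the procedures were tested on simulated data. FPKM values carry no counts, so no counting interval was computed. The members and lists were chosen with earlier results of these data known. All 4 members are named throughout. Of the other starch genes, the text names up to 3 called rises and 3 called falls per comparison, those largest in size whose higher group averages 10 FPKM or more. Other pseudocounts (0.1 and 5), filters (none, and 5 FPKM), scalings, fits without the trend and sets of libraries were tried, and each library was left out in turn. The labels call the replicates independent biological ones.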

Additional observations from a re-analysis of the deposited data

How the results depend on the processing

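Of the counts of branching enzyme genes called, those at 10 against 5 DPA, 20 against 15 DPA and against leaf, the F-test and the 6 pair ratios stayed within 1.5 times under every alternative. These counts take in TuSBEIII and, against leaf, TuSBEIIb, which the text does not count. At 15 against 10 DPA 2 genes became 0 with a pseudocount of 0.1 or median-ratio scaling, and 1 to 2 with 1 library left out. At 25 against 20 DPA 2 became 1 with a pseudocount of 5 or no filter, 0 with median-ratio scaling or the compared groups alone, and 0 to 2 with 1 library left out. At 25 against 5 DPA 2 became 1 with a pseudocount of 5 or a filter at 5 FPKM. The gene lost there was TuSBEIII, whose log2 difference was -0.53 with that pseudocount and whose highest value, 3.85 FPKM, is under that filter. TuSBEIIa kept its call at 25 against 5 DPA, with a limma adjusted p of at most 0.0062 over all alternatives. The cause of the changes in the other counts was not tested. Signs turned only for uncalled changes. After median-ratio scaling TuSBEIIa had 0.55 at 10 against 5 DPA (0.57 also without the 25 DPA group), TuSBEI -0.80 and TuSBEIII -0.0101 at 25 against 20 DPA, and TuSBEIIb 1.20 at 25 against 5 DPA. With equal totals TuSBEIII had -0.0024 at 15 against 10 DPA and TuSBEI -0.60 at 25 against 5 DPA. With a library left out, TuSBEIII had from -0.0697 to 0.1 at 15 against 10 DPA. At 25 against 5 DPA TuSBEI had from -0.87 (without 25 DPA library 2) to 0.78, and TuSBEIIb from -1.08 to 0.11 (without 25 DPA library 3).

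Of the other 24 starch genes, 14 were called at 10 against 5 DPA, and 9 with a pseudocount of 0.1. At 15 against 10 DPA 9 became 5 with that pseudocount, 4 with median-ratio scaling (5 also without the 25 DPA group), 16 with the compared groups alone or without the 25 DPA group, and 5 to 14 with 1 library left out. At 20 against 15 DPA 20 became 13 with median-ratio scaling, with or without the 25 DPA group. At 25 against 20 DPA 16 became 8 with a pseudocount of 5, 1 with median-ratio scaling, 0 with the compared groups alone and 1 to 22 with 1 library left out. At 25 against 5 DPA 21 became 13 with median-ratio scaling. Calls over all genes ranged from 2330 to 12354 around 9460 at 10 against 5 DPA, 1929 to 6607 around 3484 at 15 against 10, 2925 to 10173 around 8476 at 20 against 15, 29 to 11499 around 6876 at 25 against 20, 5935 to 16150 around 14683 at 25 against 5, and 5059 to 9100 around 8153 against leaf. In the comparison with leaf, TuSBEIIb fell below the filter without any 1 endosperm library and TuSBEIII without any 1 leaf library, and then gave no value. The fit without the 25 DPA group under median-ratio scaling was chosen after seeing the data. No paired analysis was possible because the columns carry no number that ties a library to a sample title.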

Other observations

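The summed FPKM of the 4 branching enzyme genes was set against 5 other genes whose enzymes shape starch. From 5 to 15 DPA the ratio was higher at each stage against TuISA1, TuSSI and TuSSIIa, and was lowest at 10 DPA against TuGBSSI and TuPUL. Per FPKM of TuGBSSI, the gene for the synthase that makes amylose, the branching enzyme sum was 7.15, 4.82 and 4.17 at 5 DPA, 0.835, 0.846 and 0.786 at 10 DPA, and 1.88, 2.16 and 2.77 at 15 DPA. The lowest ratio was thus at 10 DPA, with no overlap among these 3 stages. At 20 DPA TuGBSSI was listed at 0 in libraries 1 and 3, and in the 25 DPA libraries the ratio was 0.991, 4.08 and 23.9.

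Per FPKM of TuISA1, an isoamylase gene whose product trims misplaced branches, the sum was 6.96, 6.96 and 5.72 at 5 DPA, 13.5, 16.3 and 14.7 at 10 DPA, and 37.3, 47.0 and 40.5 at 15 DPA. Per FPKM of TuPUL, the other debranching enzyme gene named above, it was 42.7, 39.1 and 42.1 at 5 DPA, 14.6, 13.4 and 13.5 at 10 DPA, and 28.2, 28.7 and 30.9 at 15 DPA. Per FPKM of the starch synthase gene TuSSI it was 4.89, 4.08 and 4.96 at 5 DPA, 15.6, 17.6 and 15.0 at 10 DPA, and 48.8, 46.8 and 63.8 at 15 DPA. Per FPKM of TuSSIIa it was 0.73, 0.533 and 0.52 at 5 DPA, 3.92, 4.05 and 4.495 at 10 DPA, and 71.3, 104 and 205 at 15 DPA. Libraries of these 3 stages did not overlap for any of the 5 ratios. These ratios were chosen after the values were seen and were not tested.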
